A study of Mus musculus with 18 samples.

Results

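The genes described here encode subunits of the Polycomb repressive complexes, and they were taken from a list of 10 names (Ezh1, Ezh2, Eed, Suz12, Jarid2, Mtf2, Phf19, Cbx2, Cbx7 and Rybp) matched by Ensembl identifier in a table of read counts for 53801 genes. All 10 were found, and all 10 passed the filter on low counts, which left 18469 genes for testing. RNA was sequenced from mouse embryonic stem cells (ESCs) in 6 groups of 3 libraries, 18 libraries in all. The question of the study was how ESCs leave naive pluripotency when ezrin, a protein that ties the plasma membrane to the actin cortex, is kept active. WT cells were the line labelled E14 wt, which the methods give as E14TG2a. iEZR_CA cells were E14 cells carrying, by PiggyBac insertion, a doxycycline-inducible phosphomimetic and constitutively active ezrin followed by an IRES and mCherry, and whether the line is 1 clone is not given in the sources used here. Both lines were seeded on gelatin and collected in parallel. ESC denotes cells in 2i+LIF, the medium that holds the naive state (0 h), and T24 and T48 denote cells 24 h and 48 h after transfer to N2B27, which lacks those factors. Doxycycline was added about 16 h before exit to switch on ezrin in iEZR_CA cells, and its use on WT cells is not described. By the labels, the WT libraries were in plate wells A11 to H11 and A12. The iEZR_CA libraries were in wells B12 to H12, G9 and H9. The transgene, the drug, the history of the line and the plate column therefore cannot be told apart in any comparison of the lines.

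Polycomb repressive complex 2 (PRC2) places methyl groups on lysine 27 of histone H3. Its core holds a methyltransferase, EZH2 or the less active EZH1, together with EED, which binds the methylated mark, and SUZ12, which holds the complex together. Accessory subunits define forms of PRC2: MTF2 and PHF19 belong to the Polycomb-like family, which shares one place in the complex, and JARID2 belongs to another form. Polycomb repressive complex 1 (PRC1) places ubiquitin on histone H2A, and contains either a CBX protein such as CBX2 or CBX7, which reads the PRC2 mark, or RYBP. In ESCs these complexes are known for holding developmental regulators such as the Hox genes at a low level.

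Library depth, taken as the total count on genes, ran from 10940752 to 33276622, and the spread between replicates, as edgeR's common coefficient of variation, was 2.98%, which let differences of a few percent pass in genes of this abundance. Levels are given as normalized counts, the raw count divided by the median-of-ratios size factor of the library. Log2 fold changes, their standard errors (SE) and adjusted p-values come from the quasi-likelihood test of edgeR, run on raw counts with Benjamini-Hochberg adjustment over all genes tested, and a gene was called when its adjusted p was under 0.05. A second rule also asked for a change of more than 1.5-fold. The replicates are biological according to the study, and the labels name plate wells without saying which cultures they came from, so the p-values measure the spread between these libraries. In bulk RNA, fewer cells of a type and less RNA per cell cannot be told apart.

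Ezr, the gene of ezrin itself, was looked at first as a check of the labels. It had 12017, 11805 and 11467 normalized counts in WT ESCs and 25358, 24372 and 24728 in iEZR_CA ESCs. No library of the one line reached the range of the other, in ESCs or at T24 and T48, and iEZR_CA was the higher. The difference by edgeR was 2.10-fold in ESCs, 2.70-fold at T24 and 1.62-fold at T48, and the counts do not separate reads of the transgene from those of the endogenous gene. The labelled cell type was checked on 8 ES cell markers, none of which was at the floor of 3 counts in any group. Pou5f1, the gene of OCT4, stood at 16154 ± 713 normalized counts (SD, n = 3) in WT ESCs and at 13033 ± 227 in those of iEZR_CA.

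During exit of WT cells the Polycomb genes fell into separate courses rather than one. Phf19, Jarid2 and Cbx7 rose past 1.5-fold by T24 and fell past 1.5-fold between T24 and T48. Suz12, Eed and Rybp fell past 1.5-fold in the second day, and Ezh1 rose past 1.5-fold in that same interval. In iEZR_CA cells Phf19 and Cbx7 rose past 1.5-fold by T24 and only Phf19 changed past 1.5-fold afterwards. At T48 iEZR_CA cells held more Suz12 (1.70-fold) and Phf19 (1.69-fold) and less Cbx2 (1.53-fold) than WT cells, and in ESCs no member differed between the lines by 1.5-fold.

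**Figure D1:**
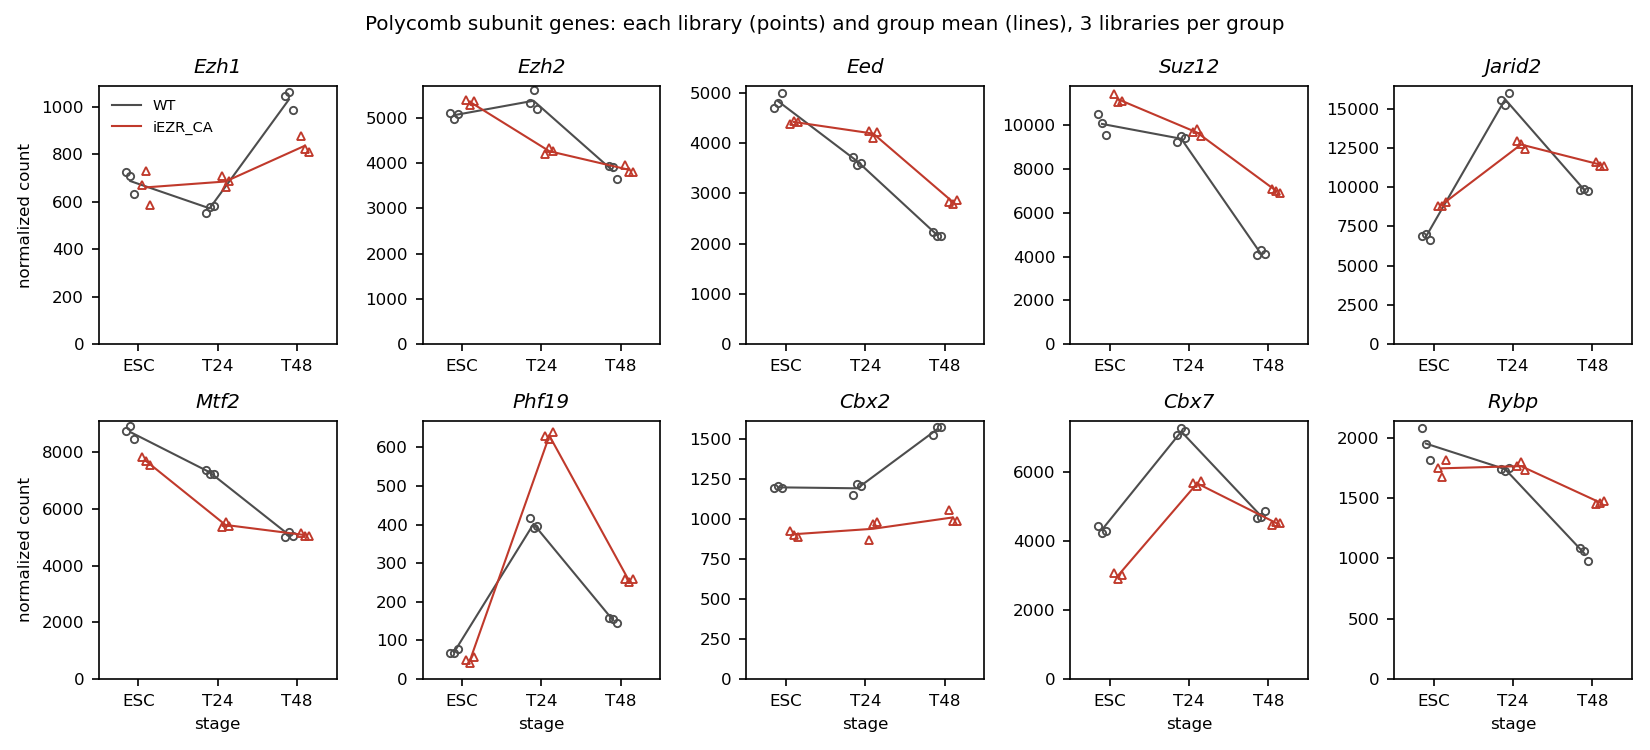
Normalized counts (vertical axes, starting at 0) of the 10 Polycomb subunit genes at each stage (horizontal axes) in WT (grey circles) and iEZR_CA (red triangles) libraries, with lines through the means of 3 libraries. Phf19 peaks at T24 in both lines and higher in iEZR_CA, and Suz12, Eed and Rybp end lower in WT than in iEZR_CA at T48.

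Counts of calls were read against the share of all tested genes called under the same rule. In ESCs, 3 members were higher in iEZR_CA than in WT cells (26.4% of all genes tested were called higher), 6 were lower (28.1% of all genes) and 1 was not called. None passed 1.5-fold, against 21.0% of all genes. At T24, 3 members were higher (30.8% of all genes) and 5 lower (30.1%), and 1 passed 1.5-fold (26.0%). At T48, 5 members were higher (31.0%) and 3 lower (30.1%), and 3 passed 1.5-fold (27.4%). The median log2 difference of the 10 members was -0.15 in ESCs, -0.13 at T24 and 0.12 at T48, where that of all genes was -0.01, -0.00 and 0.00. When the libraries were scaled to their spike-in RNA instead of by TMM, the calls kept were those of Jarid2, Cbx2 and Cbx7 in ESCs, of Ezh1, Mtf2 and Phf19 at T24, and of Eed, Suz12, Phf19, Cbx2 and Rybp at T48.

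Over the first day in WT cells, 4 members rose (31.8% of all genes) and 5 fell (33.6%), with 3 past 1.5-fold (32.4%). Between T24 and T48, 2 members rose (32.8%) and 8 fell (32.9%), with 7 past 1.5-fold (32.3%), and the members' median log2 change was -0.63 where that of all genes was 0.00. In iEZR_CA cells, 3 members rose in the first day (27.1%) and 4 fell (28.9%), with 2 past 1.5-fold (24.0%). In their second day 1 member rose (29.6%) and 8 fell (30.0%), with 1 past 1.5-fold (24.7%), and the median log2 change was -0.21 where that of all genes was 0.01. Under spike-in scaling, all 10 WT changes of the second day stayed called, while the calls kept were 4 in the first day of each line and 4 in the second day of iEZR_CA cells.

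The difference between the lines in the change over time was tested as an interaction term. From ESC to T24 this term was above 0, meaning a more positive change in iEZR_CA cells, in 5 members (21.5% of all genes) and below 0 in 4 (16.9%), and 2 members, Phf19 and Jarid2, passed 1.5-fold (15.0%). From T24 to T48 it was above 0 in 7 members (25.3%) and below 0 in 2 (20.9%), and only Suz12 passed 1.5-fold (21.4%). The median interaction over the 10 members was 0.14 and then 0.31 on the log2 scale, against 0.01 for all genes in both intervals. Contrasts of one line share libraries with the interaction that contains them, so these counts are not separate evidence. Jarid2 and Phf19 in the first interval, and Ezh1, Suz12 and Jarid2 in the second, stayed called under spike-in scaling.

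Levels of different genes were compared as normalized counts per kilobase of exon. Suz12 was the highest member per kilobase in every group but WT T48, with 2035 ± 96.1 in WT ESCs (SD, n = 3), and Jarid2 was the highest in WT T48 libraries, with 1010 ± 7.32. Phf19 was the lowest per kilobase in ESCs and at T48 of both lines, and Ezh1 had the lowest mean at T24 of both lines. In WT T24 libraries Ezh1 (76.9 ± 2.12) and Phf19 (79.7 ± 2.89) were close, so their order there is not firm. Phf19 had 9.82 per kilobase in iEZR_CA ESCs and 125 in iEZR_CA T24 libraries.

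Phf19 (ENSMUSG00000026873, GRCm38 chromosome 2, 34893757 to 34914026, minus strand) had the widest range of group means among the members, 3.65 on the log2 scale, where the next, Suz12, had 1.43. In ESCs it had 66.3, 67.3 and 77.5 normalized counts in WT libraries and 49.8, 42.7 and 56.0 in iEZR_CA libraries. At T24 it had 418, 391 and 396 in WT and 629, 623 and 639 in iEZR_CA. By T48 it stood at 158, 155 and 146 in WT and 258, 252 and 259 in iEZR_CA. The lines did not overlap at any stage, and the line with the lower level in ESCs was the one with the higher level afterwards. The log2 difference of iEZR_CA from WT was -0.55 ± 0.148 in ESCs (SE; edgeR adjusted p = 0.00116), 0.64 ± 0.0638 at T24 (5.8e-14) and 0.75 ± 0.0872 at T48 (1.3e-11). Phf19 rose 5.66-fold by T24 in WT cells and 12.9-fold in iEZR_CA cells, and the interaction was 1.19 ± 0.160 (edgeR adjusted p = 4.7e-09). It then fell 2.65-fold in WT and 2.45-fold in iEZR_CA cells, where the interaction of 0.11 ± 0.109 was not called (adjusted p = 0.430). All 6 groups of Phf19 were apart from their neighbours in the order of levels, which ran from iEZR_CA ESC through WT ESC, WT T48, iEZR_CA T48 and WT T24 to iEZR_CA T24. Over the 18 libraries, the genes whose log2(normalized count + 1) followed Phf19 most closely were Glo1 (Pearson's r = 0.988), Kndc1 (0.986) and Utrn (0.982) among 12800 genes with a mean of at least 50 normalized counts, 11 of which exceeded 0.95. These libraries share their stages and lines, so the values describe a common course.

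Suz12 (ENSMUSG00000017548, chromosome 11, 79993106 to 80034123, plus strand) was the core PRC2 gene with the largest difference between the lines. It had 10511, 10120 and 9565 normalized counts in WT ESCs and 11430, 11058 and 11099 in iEZR_CA ESCs. The T24 libraries held 9253, 9504 and 9404 in WT and 9692, 9815 and 9504 in iEZR_CA. At T48 it had 4067, 4291 and 4112 in WT and 7089, 7008 and 6903 in iEZR_CA. The lines nearly met at T24 and lay far apart at T48, where the WT libraries were the lowest of all 18. The log2 difference was 0.15 ± 0.0266 in ESCs (edgeR adjusted p = 2.8e-06), 0.04 ± 0.0268 at T24 (0.147, not called) and 0.76 ± 0.0282 at T48 (9.2e-35). Between T24 and T48 Suz12 fell 2.27-fold in WT cells and 1.38-fold in iEZR_CA cells, an interaction of 0.72 ± 0.0389 (edgeR adjusted p = 2.1e-25). In the order of levels, iEZR_CA T24 and WT ESC overlapped. The lines did not overlap at T24, with WT lower, but their nearest libraries were equal once rounded to whole counts (9504).

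The bases before the start of Suz12 and Phf19 are shown because these were the members past 1.5-fold higher in iEZR_CA cells at T48, and the only 2 of the 8 members with a promoter in the RefSeq table (GRCm38.p6) whose 250 bases before the start held one of 5 motifs searched on both strands. The motifs were TTTCCCGC and TTTGGCGC (E2F), CACGTG (the E-box), CCGGAAG (ETS) and the NRF1 motif. Of 32851 promoter windows of the same length, 0.895%, 0.417%, 6.02%, 6.91% and 0.782% held them. Capitals mark TTTCCCGC, which in Phf19 lies on the other strand and so reads GCGGGAAA. It begins 219 bases before the RefSeq start in Suz12 and 208 bases before it in Phf19, and no match overlapped another motif. The runs read 5′ to 3′ on the gene's strand and leave out bases inside the annotated gene, chr11:79992856-79993105 on the plus strand (250 bases, 73.6% G and C) and chr2:34914027-34914226 on the minus strand (200 bases, 74.5% G and C).
Suz12: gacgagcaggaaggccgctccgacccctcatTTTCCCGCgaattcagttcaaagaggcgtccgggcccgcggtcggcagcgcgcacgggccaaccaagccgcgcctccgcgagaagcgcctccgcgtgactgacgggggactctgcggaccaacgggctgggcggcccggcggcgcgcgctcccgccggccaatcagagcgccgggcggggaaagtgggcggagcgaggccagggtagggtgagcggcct
Phf19: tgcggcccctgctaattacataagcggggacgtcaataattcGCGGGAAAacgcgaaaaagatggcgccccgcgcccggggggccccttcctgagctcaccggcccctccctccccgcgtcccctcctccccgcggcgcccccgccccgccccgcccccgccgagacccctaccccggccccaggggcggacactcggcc
A match describes these letters only, and whether any factor binds there was not tested.

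Eed (ENSMUSG00000030619, chromosome 7, 89954654 to 89980983, minus strand), whose product binds the methylated histone tail, ended lower than it began in both lines, and its lines crossed. WT libraries had 4706, 4795 and 4992 normalized counts in ESCs, and iEZR_CA libraries 4388, 4442 and 4427. The WT values at T24 were 3727, 3571 and 3608 and the iEZR_CA values 4234, 4108 and 4221. At T48 they were 2236, 2155 and 2148 in WT and 2833, 2794 and 2873 in iEZR_CA. WT was the higher line in ESCs and the lower one at both later stages, and no neighbouring groups overlapped in the order of levels. The log2 difference went from -0.14 ± 0.0291 in ESCs (edgeR adjusted p = 5.1e-05) to 0.20 ± 0.0298 at T24 (1.7e-08) and 0.38 ± 0.0319 at T48 (6.0e-17). The interaction was 0.34 in the first interval and 0.18 in the second. Within iEZR_CA cells the change from ESC to T24, -0.08 ± 0.0295 (adjusted p = 0.0145), lost its call without iEZR_CA ESC replicate 2 (0.0623) or iEZR_CA T24 replicate 2 (0.0828), each with a log2 change of -0.07, and turned to 0.07 (0.729) under spike-in scaling.

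The methyltransferase genes took opposite courses in WT cells. Ezh2 (ENSMUSG00000029687, chromosome 6, 47530139 to 47595341, minus strand) was at 5061 ± 66.5 normalized counts (SD, n = 3) in WT ESCs, 5380 ± 210 at T24 and 3832 ± 152 at T48. In iEZR_CA cells it had 5352 ± 67.0, 4265 ± 65.5 and 3856 ± 85.7. Ezh2 thus stood lower in iEZR_CA only at T24, by -0.33 ± 0.0295 on the log2 scale (edgeR adjusted p = 5.4e-16), and at T48 the libraries of the lines overlapped (0.02 ± 0.0302, adjusted p = 0.645). The small difference in ESCs, 0.07 ± 0.0292 (0.0286), lost its call without WT ESC replicate 2 (log2 0.06, adjusted p = 0.118), iEZR_CA ESC replicate 1 (0.07, 0.0763) or iEZR_CA ESC replicate 3 (0.07, 0.0618).

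Ezh1 (ENSMUSG00000006920, chromosome 11, 101191115 to 101226463, minus strand) had 723, 706 and 630 normalized counts in WT ESCs and 668, 727 and 585 in iEZR_CA ESCs. The T24 values were 554, 578 and 583 in WT and 708, 660 and 686 in iEZR_CA. At T48 it had 1043, 1061 and 985 in WT and 876, 822 and 807 in iEZR_CA. The lines overlapped in ESCs, WT was lower at T24 and WT was higher at T48, so the swing of Ezh1 was wider in WT cells. It fell 1.21-fold and then rose 1.80-fold in WT cells, while in iEZR_CA cells the first change of 0.03 ± 0.0591 on the log2 scale was not called (edgeR adjusted p = 0.729) and the second was a rise of 1.23-fold. The second interaction was -0.55 ± 0.0799 (adjusted p = 3.2e-08).

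Jarid2 (ENSMUSG00000038518, chromosome 13, 44729474 to 44921643, plus strand), an accessory subunit gene needed for normal PRC2 recruitment in ESCs, had 6868, 7000 and 6652 normalized counts in WT ESCs and 8829, 8776 and 9034 in iEZR_CA ESCs. At T24 it had 15550, 15247 and 15973 in WT and 12920, 12767 and 12456 in iEZR_CA. At T48 it had 9819, 9887 and 9745 in WT and 11589, 11339 and 11374 in iEZR_CA. Both lines peaked at T24, and iEZR_CA stayed between the WT extremes at every stage with no overlap between any neighbouring groups. The log2 difference was 0.37 ± 0.0256 in ESCs (edgeR adjusted p = 2.2e-20), -0.29 ± 0.0249 at T24 (1.1e-16) and 0.23 ± 0.0252 at T48 (3.3e-12). Jarid2 rose 2.26-fold in WT and 1.43-fold in iEZR_CA cells by T24, an interaction of -0.66 ± 0.0357 (edgeR adjusted p = 4.3e-25), and then fell 1.59-fold and 1.11-fold.

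Mtf2 (ENSMUSG00000029267, chromosome 5, 108065674 to 108109004, plus strand), the most abundant Polycomb-like gene per kilobase, fell from ESC to T24 and from T24 to T48 in both lines with TMM scaling. It was at 8702 ± 217 normalized counts (SD, n = 3) in WT ESCs, 7287 ± 81.4 at T24 and 5079 ± 90.9 at T48. In iEZR_CA cells it had 7676 ± 135, 5431 ± 96.5 and 5075 ± 58.1. The iEZR_CA libraries were lower in ESCs and T24, and at T48 the lines overlapped. The log2 difference was -0.19 ± 0.0260 in ESCs (edgeR adjusted p = 4.6e-09), -0.42 ± 0.0266 at T24 (1.3e-22) and 0.01 ± 0.0271 at T48 (0.837). The first change was -0.50 in iEZR_CA cells and -0.27 in WT cells, with an interaction of -0.23 and then 0.43. Under spike-in scaling the first WT change of Mtf2 lost its call (-0.13, edgeR adjusted p = 0.397), as did the second iEZR_CA change, which turned to 0.01 (0.969).

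Among the PRC1 genes, Cbx2 (ENSMUSG00000025577, chromosome 11, 119022962 to 119031270, plus strand) was lower in iEZR_CA cells at every stage. It had 1197, 1204 and 1195 normalized counts in WT ESCs and 927, 902 and 888 in iEZR_CA ESCs. By T24 it had 1152, 1220 and 1206 in WT and 870, 968 and 981 in iEZR_CA. At T48 it had 1526, 1579 and 1574 in WT and 1056, 989 and 986 in iEZR_CA. All 9 iEZR_CA libraries lay below all 9 WT libraries. The log2 difference was -0.41 ± 0.0451 in ESCs (edgeR adjusted p = 3.1e-12), -0.33 ± 0.0447 at T24 (2.0e-09) and -0.62 ± 0.0428 at T48 (1.4e-20). Cbx2 rose 1.31-fold from T24 to T48 in WT cells, and the change in iEZR_CA cells, 0.10 ± 0.0451, missed the threshold (adjusted p = 0.0520), an interaction of -0.29 ± 0.0620 (8.1e-05). That change of Cbx2 was called without iEZR_CA T24 replicate 3 (log2 0.13, edgeR adjusted p = 0.0319) or iEZR_CA T48 replicate 3 (0.11, 0.0473). It was also called with a filter of 10 counts in every library (0.11, 0.0286), without both libraries of plate column 9 (0.14, 0.0276) and in a fit to the groups compared (0.10, 0.0471).

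Cbx7 (ENSMUSG00000053411, chromosome 15, 79915807 to 79971119, minus strand), whose product reads the PRC2 mark through its chromodomain, had 4445, 4243 and 4284 normalized counts in WT ESCs and 3063, 2911 and 3000 in iEZR_CA ESCs. At T24 it had 7064, 7259 and 7175 in WT and 5668, 5583 and 5748 in iEZR_CA. At T48 it had 4668, 4686 and 4855 in WT and 4471, 4549 and 4526 in iEZR_CA. WT was well above iEZR_CA in ESCs and at T24, and the lines were almost level at T48. The log2 difference was -0.54 ± 0.0288 in ESCs (edgeR adjusted p = 6.2e-26), -0.34 ± 0.0270 at T24 (9.5e-18) and -0.06 ± 0.0279 at T48 (0.0419). The last of these lost its call under spike-in scaling and without any of 9 single libraries, with an adjusted p of up to 0.149 in those 9. Both lines peaked at T24, after rises of 1.64-fold in WT and 1.89-fold in iEZR_CA cells.

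Rybp (ENSMUSG00000072872, chromosome 6, 100228565 to 100287485, minus strand), whose product marks the variant PRC1 forms without a CBX subunit, had 2084, 1950 and 1819 normalized counts in WT ESCs and 1748, 1677 and 1813 in iEZR_CA ESCs. At T24 it had 1743, 1724 and 1750 in WT and 1762, 1799 and 1732 in iEZR_CA. At T48 it had 1087, 1057 and 977 in WT and 1451, 1460 and 1474 in iEZR_CA. The lines overlapped at T24 and were far apart at T48, with WT lower. The log2 difference was -0.17 ± 0.0400 in ESCs (edgeR adjusted p = 2.5e-04), 0.02 ± 0.0404 at T24 (0.640) and 0.50 ± 0.0439 at T48 (5.2e-16). Rybp fell 1.68-fold from T24 to T48 in WT and 1.21-fold in iEZR_CA cells, an interaction of 0.47 ± 0.0597 (edgeR adjusted p = 4.3e-10).

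**Figure D2:**
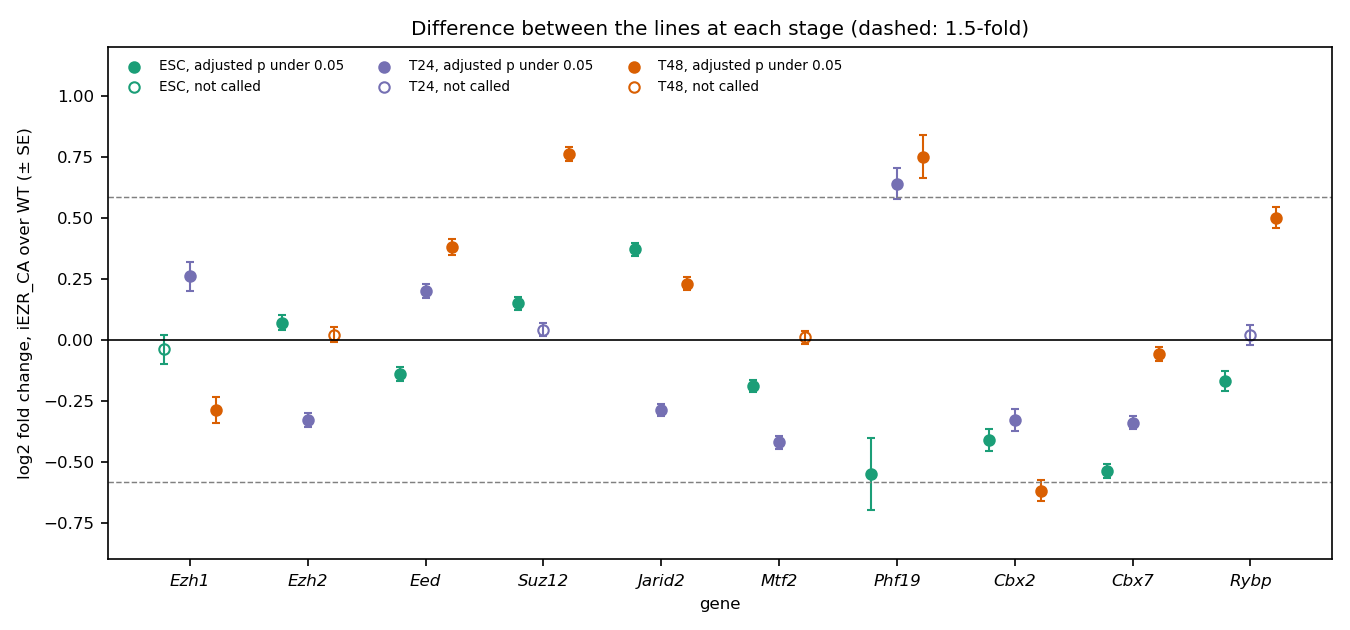
Log2 fold change of iEZR_CA over WT (vertical axis, with SE) for each of the 10 genes (horizontal axis) in ESCs (green), T24 (purple) and T48 (orange), where filled points had an adjusted p under 0.05 and dashed lines mark 1.5-fold. Phf19, Eed and Rybp are called below 0 in ESCs and above 0 at T48, and Cbx2 stays below 0 at all 3 stages. Suz12 at T48 and Phf19 at T24 and T48 lie above the upper dashed line, and Cbx2 at T48 lies below the lower one.

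Summed over the 10 genes, the libraries held 43730 ± 854 normalized counts (SD, n = 3) in WT ESCs and 43875 ± 421 in those of iEZR_CA. At T24 the sum was 52350 ± 176 in WT and 45952 ± 303 in iEZR_CA, and at T48 it was 33582 ± 367 and 38278 ± 383. At T24, where the WT sum was the higher, Jarid2, Mtf2, Cbx7, Ezh2 and Cbx2 were each called lower in iEZR_CA cells.

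Each member was also set beside the genes around it that had a mean of at least 50 normalized counts. The median log2 difference between the lines over such genes of each member's chromosome lay between -0.09 and 0.06. In a window 5 Mb wide centred on Suz12, 51 genes had a median of 0.03 at T48. In the window of that width around Phf19, 46 genes had a median of 0.08 at T24 and 0.17 at T48. Near Rybp, 8 genes had medians of -0.40 in ESCs, -0.42 at T24 and -0.32 at T48, and near Eed 9 genes had -0.43 at T24, in both cases with few genes in the window. Exons of 5 members share bases with a gene on the opposite strand, namely Ezh2 with Gm26625 (174 bases), Eed with E230029C05Rik (261), Suz12 with Gm26563 (178), Mtf2 with Tmed5 (395) and Cbx7 with Apobec3 (100). Whether counting used the strand is not given in the sources used here, so reads in those bases cannot be told apart.

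Paralogs that compete for one place in a complex were compared per length, as shares of normalized counts per kilobase of exon. With 3 libraries against 3, no exact p below 0.1 can be reached. Ezh1 made up 10.8% of the Ezh1 and Ezh2 level in WT ESCs, 8.72% at T24 and 19.4% at T48. In iEZR_CA cells its share was 9.96%, 12.6% and 16.3%. The lines did not overlap at T24, where iEZR_CA was 3.88 ± 0.388 percentage points higher (SE), or at T48, where it was 3.16 points lower (-3.16 ± 0.203), and the two-sided exact permutation p was 0.1 at each. In ESCs the shares overlapped (difference -0.888 points, exact permutation p = 0.2), and the difference was -1.41 points without iEZR_CA ESC replicate 2 and -0.361 points without iEZR_CA ESC replicate 3.

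Phf19 held a small share of the Polycomb-like genes Phf1, Mtf2 and Phf19, and that share was highest at T24 in both lines. It went from 0.866% in WT ESCs to 5.68% at T24 and 3.19% at T48, and from 0.689% to 10.9% and 5.17% in iEZR_CA cells. At T24 the iEZR_CA share exceeded the WT share by 5.21 ± 0.178 points and at T48 by 1.98 ± 0.0930 points (two-sided exact permutation p = 0.1 at each). Mtf2 remained the main gene of the set, at 83.0% of its level in iEZR_CA T24 libraries and 91.3% in WT T24 libraries.

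The Rybp paralog Yaf2, chosen after its values were seen, went from 13.0% of the pair in WT ESCs and 12.2% at T24 to 41.4% at T48, and from 19.1% and 16.2% to 33.7% in iEZR_CA cells.

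**Figure D3:**
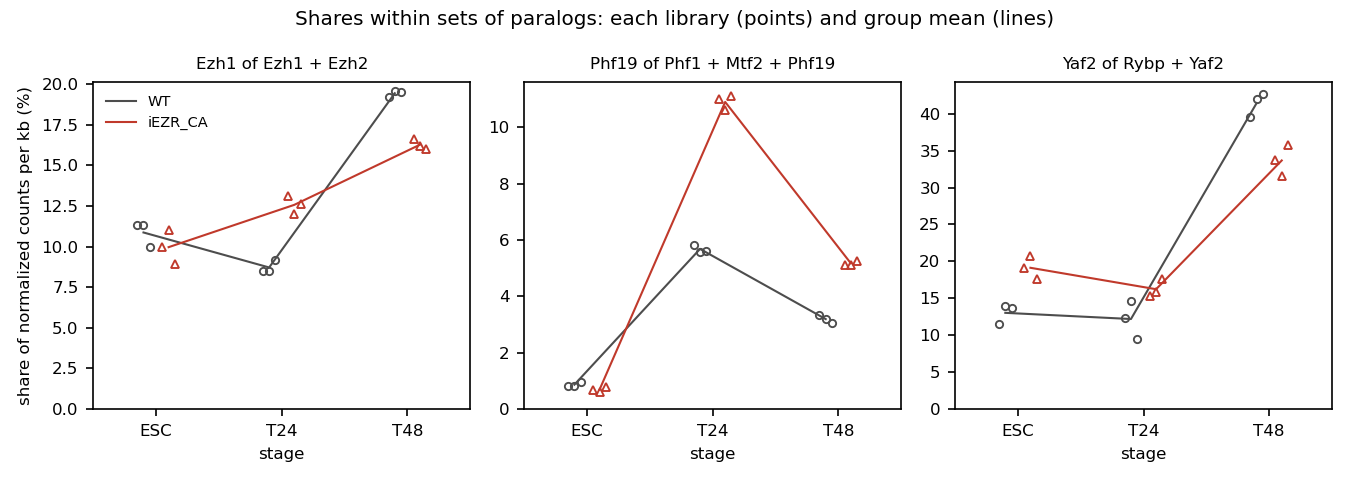
Share of normalized counts per kilobase of exon (vertical axes, percent, starting at 0) taken by Ezh1, Phf19 and Yaf2 within their sets of paralogs at each stage (horizontal axes) in WT (grey circles) and iEZR_CA (red triangles) libraries, with lines through the means of 3 libraries. The Phf19 share peaks at T24 at 5.68% in WT and 10.9% in iEZR_CA, and the Ezh1 share is higher in iEZR_CA at T24 and in WT at T48.

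The other Polycomb genes, targets and markers are counted beside the share of all tested genes called higher and lower in iEZR_CA cells, which was 26.4% and 28.1% in ESCs, 30.8% and 30.1% at T24, and 31.0% and 30.1% at T48. Among 7 other PRC2 genes, iEZR_CA was higher in 3 and lower in 2 in ESCs, higher in 2 and lower in 2 at T24, and higher in 4 and lower in 3 at T48, with median log2 differences of -0.00, 0.05 and 0.08. Epop, which encodes a subunit of the Polycomb-like forms of PRC2, was at 8404 ± 354 normalized counts (SD, n = 3) in WT ESCs and 4221 ± 227 in those of iEZR_CA, a log2 difference of -1.0 ± 0.0499 (SE; edgeR adjusted p = 1.8e-11), and stayed lower at T24 (-0.96) and T48 (-0.69). Phf1, the third Polycomb-like gene, had 149 ± 14.9 in WT T24 libraries and 244 ± 7.26 in iEZR_CA T24 libraries (0.73 ± 0.10, edgeR adjusted p = 2.2e-09). At T48 Lcor, whose locus encodes another PRC2 accessory protein, was higher in iEZR_CA cells (0.63 ± 0.0786, 1.7e-10). Ezhip, which encodes an inhibitor of PRC2, was higher in ESCs (0.46) and at T24 (0.42) and lower at T48 (-0.51 ± 0.0942, 2.8e-06).

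Of the 22 other PRC1 genes, 7 were called higher and 8 lower in iEZR_CA ESCs (26.4% and 28.1% of all genes), 9 and 9 at T24 (30.8% and 30.1%), and 8 and 8 at T48 (31.0% and 30.1%), with medians of -0.04, -0.06 and -0.02. Phc1, a polyhomeotic gene and the most abundant of them, had 7561 ± 8.78 normalized counts in WT ESC libraries and 22007 ± 221 at T24 (SD, n = 3), and 4485 ± 86.2 and 10927 ± 248 in iEZR_CA cells. Its log2 difference was -0.76 in ESCs, -1.01 ± 0.0240 at T24 (SE; edgeR adjusted p = 1.1e-45) and -0.24 at T48. Its paralog Phc2 was higher in iEZR_CA cells at T24 (0.94) and lower at T48 (-1.05 ± 0.0494, edgeR adjusted p = 5.5e-29), with 1376 ± 90.6 normalized counts in WT and 657 ± 26.0 in iEZR_CA T48 libraries. Cbx8 had 40.2 ± 8.79 in WT and 85.9 ± 18.4 in iEZR_CA T24 libraries (1.17 ± 0.169, 1.1e-08). Scmh1 had 263 ± 15.4 in WT and 627 ± 45.4 in iEZR_CA T48 libraries (1.24 ± 0.0663, 3.4e-26).

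Of 6 genes whose products remove the Polycomb marks or take part in their removal, none was higher and 2 were lower in iEZR_CA ESCs (26.4% and 28.1% of all genes), none was higher and 5 were lower at T24 (30.8% and 30.1%), and 2 were higher and 2 lower at T48 (31.0% and 30.1%; medians -0.10, -0.30 and 0.05). Kdm6b, which encodes an H3K27 demethylase, had 3303 ± 31.9 normalized counts in WT and 2007 ± 60.3 in iEZR_CA T24 libraries (SD, n = 3), a log2 difference of -0.72 ± 0.0351 (SE; edgeR adjusted p = 4.0e-28). Asxl1, which encodes a partner of the H2A deubiquitinase BAP1, was lower at T24 (-0.31 ± 0.0275, edgeR adjusted p = 3.5e-16), a call lost under spike-in scaling. Its paralog Asxl3 went from lower in iEZR_CA at T24 (-0.66) to higher at T48 (1.32 ± 0.142, 1.2e-12), with 58.6 ± 9.65 normalized counts in WT and 154 ± 27.3 in iEZR_CA T48 libraries.

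**Figure D4:**
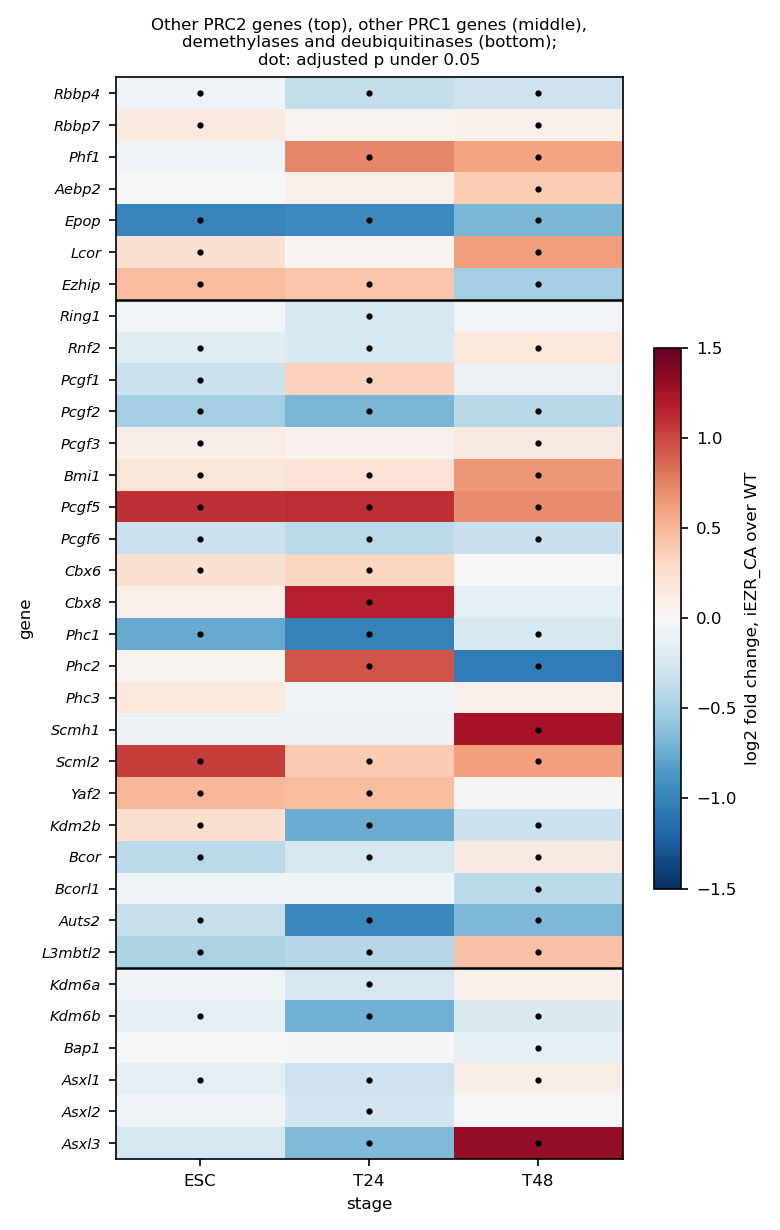
Log2 fold change of iEZR_CA over WT (colour, red higher in iEZR_CA) at each stage (horizontal axis) for 7 other PRC2 genes, all but 1 of 22 other PRC1 genes and 6 genes of mark removal (vertical axis), where dots mark an adjusted p under 0.05. Epop and Phc1 are blue at every stage, and Phc2 turns from red at T24 to blue at T48.

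Genes that Polycomb is known to hold low in ESCs were counted next, without a median since many were at the floor of 3 counts. Summed over 39 Hox genes, of which 24 were tested, the WT libraries had 1969, 1972 and 2052 normalized counts in ESCs, and the iEZR_CA libraries 1907, 1924 and 2029. At T24 the WT sums were 520, 588 and 612 and the iEZR_CA sums 847, 853 and 872. At T48 they were 410, 482 and 568 in WT and 399, 411 and 422 in iEZR_CA. The Hox sums were highest in ESCs, and the lines stood apart only at T24, with iEZR_CA higher. There, 12 of the 24 tested Hox genes were called higher and 3 lower in iEZR_CA, where 30.8% and 30.1% of all genes were. In ESCs these counts were 6 and 5 (26.4% and 28.1% of all genes) and at T48 they were 7 and 5 (31.0% and 30.1%). From ESC to T24, 2 Hox genes rose and 18 fell in WT cells (31.8% and 33.6% of all genes), and none rose and 17 fell in iEZR_CA cells (27.1% and 28.9%) by edgeR. The interaction was above 0 in 11 and below 0 in 1 (21.5% and 16.9%). Some Hox genes passed the filter on low counts only through their ESC libraries, such as Hoxc11 (32.3 ± 2.52 normalized counts in WT ESCs and 0 in WT T24 libraries). For such genes the filter favoured a fall, so the counts of falls, and of interactions that contain them, cannot be judged against the share of all genes. At T24, 17 of the 39 Hox genes were at the floor in WT libraries and 13 in iEZR_CA libraries. The counts between the lines there thus include genes with few reads, such as Hoxb13 (2.03 ± 1.08 in WT and 16.6 ± 5.51 in iEZR_CA). Hoxc13 added the most counts to these sums in ESCs of both lines, with 546 ± 14.2 normalized counts in WT and 373 ± 22.1 in iEZR_CA (SD, n = 3). Per kilobase of exon, Hoxc13 had 222 ± 5.79 and Hoxc12 209 ± 11.6 in WT ESCs, and in iEZR_CA ESCs Hoxc12 was the higher, at 273 ± 25.7 against 151 ± 8.98.

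The single Hox genes taken by the naming rule moved both ways. Hoxd9 had 2.32, 0 and 0 normalized counts in WT T48 libraries and 18.4, 15.4 and 14.4 in iEZR_CA T48 libraries, which did not overlap, and no fold is given since the WT group was at the floor. Hoxc12 was at or under the floor in both lines at T48, so its call there (edgeR adjusted p = 0.0426) carries no fold, and it was lost with DESeq2 and with voom. Hoxd13 had 67.1 ± 9.14 normalized counts in WT and 35.6 ± 2.16 in iEZR_CA T24 libraries (SD, n = 3), a log2 difference of -0.87 ± 0.169 (SE; edgeR adjusted p = 8.4e-06).

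Of 30 other developmental targets, 23 were tested, and 4 were higher and 10 lower in iEZR_CA ESCs (26.4% and 28.1% of all genes), 4 and 3 at T24 (30.8% and 30.1%), and 7 and 8 at T48 (31.0% and 30.1%). Their sums were 2026 ± 15.5 and 2108 ± 50.9 normalized counts in WT and iEZR_CA ESCs (SD, n = 3), 2433 ± 30.7 and 1786 ± 14.1 at T24, and 4094 ± 98.9 and 3108 ± 58.7 at T48. Wt1, the gene of a zinc finger transcription factor, added the most counts to the sums of WT T24 libraries and of both lines at T48, although per kilobase of exon Cdkn2a was above it in all 3 groups (627 against 142, 613 against 390 and 827 against 183). Wt1 had 899, 892 and 839 normalized counts in WT T24 libraries and 45.9, 71.4 and 54.4 in iEZR_CA T24 libraries. The libraries of the lines lay far apart for Wt1, by -3.89 ± 0.0858 on the log2 scale (SE; edgeR adjusted p = 1.5e-47). Without Wt1, left out after the values were seen, the sums of the remaining 29 targets turned to 1556 ± 7.42 in WT and 1729 ± 26.5 in iEZR_CA libraries at T24 and to 1678 ± 82.9 and 1972 ± 66.6 at T48, so that iEZR_CA had the higher sum at both. Much of that gap lay in Cdkn2a, with 735 ± 22.7 in WT and 908 ± 29.8 in iEZR_CA at T24, and 718 ± 56.8 and 969 ± 61.9 at T48. Sums without both genes were not taken, so the higher sums do not describe the other targets. The homeobox gene Irx3, like Wt1, was lower in iEZR_CA at T24 (-1.88 ± 0.262, edgeR adjusted p = 7.4e-09). Gsc, the gene of goosecoid, was higher at T24 (1.85 ± 0.420, 1.1e-04) from 3.95 ± 2.82 normalized counts in WT to 15.1 ± 3.22 in iEZR_CA, far under the 365 ± 25.3 of WT ESCs. Eomes, a T-box gene, was higher at T48 (1.15 ± 0.102, 6.2e-16).

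Markers of cell states and of other cell types moved with the lines as well. Of 6 markers of the formative state that follows naive pluripotency, 6 were lower in iEZR_CA cells at T24, where their sum was 64925 ± 1032 normalized counts in WT and 21128 ± 661 in iEZR_CA (SD, n = 3, Dnmt3b most abundant). In ESCs 2 formative markers were above WT and 3 below, with sums of 4713 ± 62.7 in WT and 5830 ± 194 in iEZR_CA, and at T48 1 was above and 4 below, with sums of 96868 ± 3757 and 52303 ± 1265. Of 8 ES cell markers, none was higher and 6 were lower in iEZR_CA in the ESC state, against 6 and 1 at T24 and 6 and 2 at T48. Esrrb (2.77 ± 0.0398, edgeR adjusted p = 2.6e-58) and Zfp42 (2.63 ± 0.0387, 2.2e-39) were higher in iEZR_CA cells at T48, while Sall4 was lower in ESCs (-0.56 ± 0.0264, 1.1e-28) and Pou5f1 at T24 (-0.48 ± 0.0272, 3.6e-23). The formative genes Lef1 (-3.38 ± 0.0574, edgeR adjusted p = 4.8e-54) and Fgf5 (-3.13 ± 0.0865, 5.7e-29) were lower at T24, and Fgf5 was at the floor in iEZR_CA ESCs. For the 10 trophectoderm markers, 7 of 9 tested were higher and 1 lower in iEZR_CA ESCs, 6 were higher and none lower at T24, and 4 were higher and 4 lower at T48, with library sums of 600, 610 and 618 in WT ESCs and 1973, 2026 and 2057 in iEZR_CA ESCs, led by Tfap2a. At T24 these sums were 517, 526 and 533 in WT and 2016, 2027 and 2047 in iEZR_CA, and at T48 they were 947, 983 and 1032 and 1406, 1451 and 1502. Among the defining trophectoderm genes, Elf5 was at the floor in all WT groups, Hand1 in ESCs of both lines and Cdx2 at T24 in both lines, while Gata3 was higher in iEZR_CA T48 cells (3.60 ± 0.164, edgeR adjusted p = 1.0e-29). Hand1, although at the floor in both lines, is among the 7 called in ESCs. The keratin gene Krt8 was higher at T24 (2.73 ± 0.143, edgeR adjusted p = 1.0e-26), and its partner Krt18 was lower at T48 (-1.16 ± 0.0823, 3.9e-20). The partners moved alike, with Krt18 at 83.8 ± 12.5 in WT and 140 ± 10.3 in iEZR_CA at T24. Krt8 had 142 ± 15.2 in WT and 86.8 ± 10.2 in iEZR_CA at T48.

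The 10 primitive endoderm markers summed to 2225, 2263 and 2317 normalized counts in WT ESCs and 4486, 4517 and 4798 in iEZR_CA ESCs, led by Lama1, with 3 of 9 tested higher and 3 lower there, 3 higher and none lower at T24, and none higher and 7 lower at T48. At T24 the sums were 744, 773 and 794 in WT and 1669, 1685 and 1776 in iEZR_CA, and at T48 they were 1652, 1713 and 1734 and 1169, 1194 and 1199. Dab2 was higher in iEZR_CA ESCs (3.81 ± 0.112, edgeR adjusted p = 1.3e-38) and Lama1 at T24 (1.41 ± 0.0796, 5.1e-25), while Gata4, a defining transcription factor of this lineage that was named after its values were seen, was lower in iEZR_CA ESCs (-2.52 ± 0.201, 1.3e-17), from 97.5 ± 5.65 normalized counts in WT to 17.4 ± 2.01 (SD, n = 3). Gata6, of the same list and also named afterwards, was higher there (0.90 ± 0.191, edgeR adjusted p = 4.1e-05), from 32.4 ± 3.06 to 61.5 ± 6.15. Without Lama1 and Dab2, also chosen after the values were seen, the ESC sums turned to 459 ± 20.9 in WT and 363 ± 30.8 in iEZR_CA. Sox7 was at the floor in iEZR_CA ESCs and at T48, and Foxq1 was at 0 in iEZR_CA ESCs. The 8 neural markers summed to 5222, 5421 and 5460 in WT T48 libraries and 2456, 2458 and 2488 in iEZR_CA T48 libraries, led by Sox3, with none of 7 tested higher and 6 lower there, against 1 higher and 4 lower in ESCs and 2 and 2 at T24, and Neurog2 at the floor in every group. Tubb3 was lower at T48 (-1.53 ± 0.0499, edgeR adjusted p = 7.0e-38) and Sox1 at T24 (-1.27 ± 0.0936, 2.8e-17). At T24, however, iEZR_CA had more Tubb3 (656 ± 7.82 in WT, 1209 ± 34.3 in iEZR_CA) and more Nes (193 ± 10.3 and 412 ± 41.1). For the 8 mesendoderm markers, of which 7 were tested, iEZR_CA exceeded WT in 1 and was below it in 4 in the ESC state, in 3 and none at T24, and in 2 and 1 at T48. Their sums were 593, 634 and 652 in WT and 685, 745 and 755 in iEZR_CA ESCs, 147, 162 and 164 and 179, 184 and 212 at T24, and 168, 173 and 184 and 282, 299 and 308 at T48. The higher iEZR_CA sum in ESCs lay in Gsc, the 1 marker called above WT there, with 365 ± 25.3 in WT and 556 ± 26.2 in iEZR_CA. Sums without Gsc were not taken. Eomes led the mesendoderm markers at T48 with 107 ± 2.58 in WT and 237 ± 18.4 in iEZR_CA, and the sums without it, taken after the values were seen, were 67.9 ± 7.18 and 58.8 ± 4.95 there and overlapped. The 8 markers of 2-cell-like cells summed to at most 167 normalized counts in any library, and of the 5 tested 2 were above and 2 below WT in iEZR_CA ESCs, 1 and 1 at T24, and none and 2 at T48. The part of these shifts in the differences of the Polycomb genes was not tested.

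**Figure D5:**
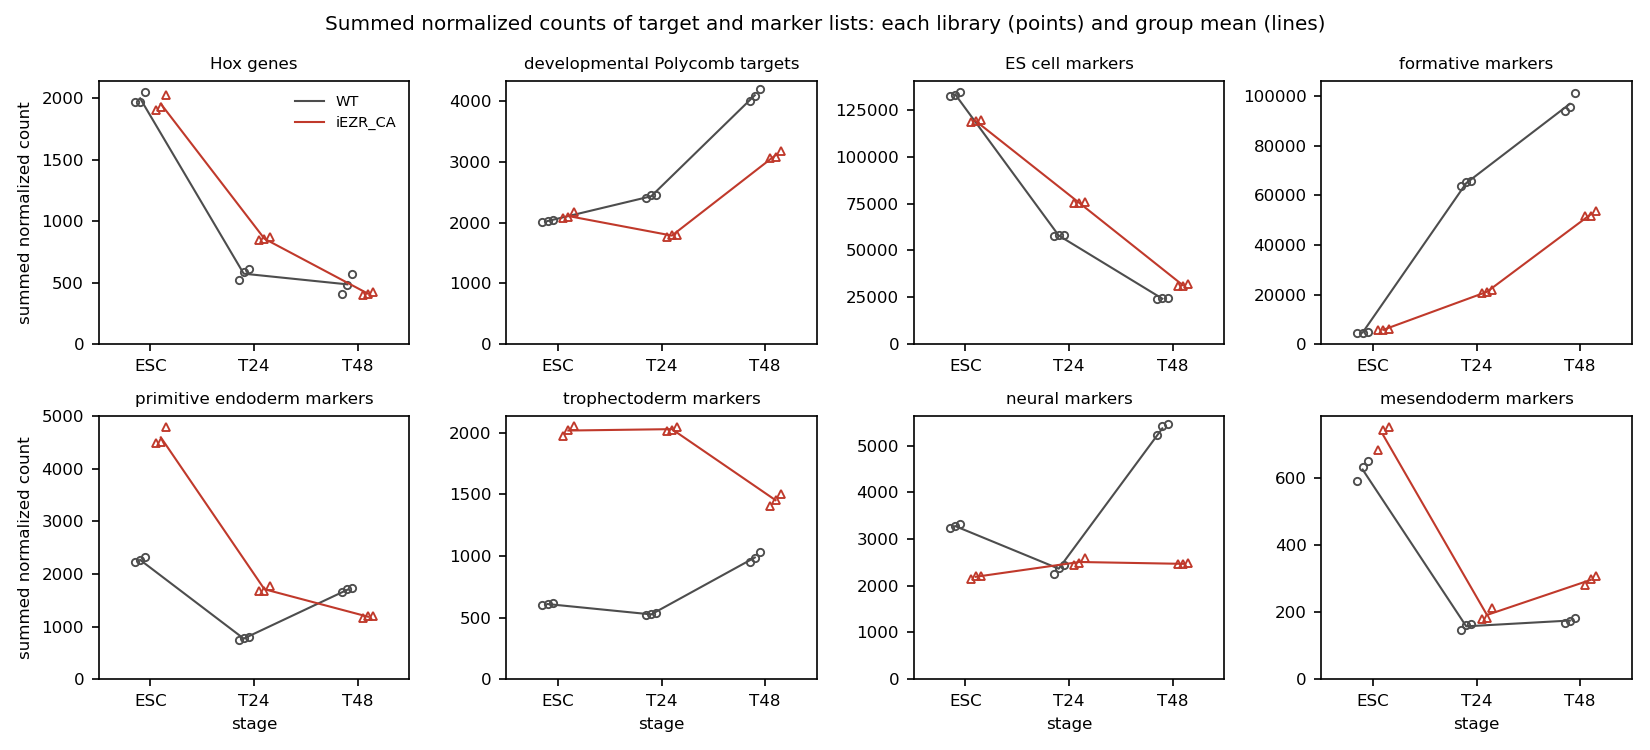
Summed normalized counts (vertical axes, starting at 0) of 2 lists of Polycomb targets and 6 lists of markers at each stage (horizontal axes) in WT (grey circles) and iEZR_CA (red triangles) libraries, with lines through the means of 3 libraries. Hox sums fall from ESC to T24 in both lines, formative sums rise less in iEZR_CA, and trophectoderm sums are higher in iEZR_CA at all 3 stages, though at T48 4 of the 9 tested markers were called higher and 4 lower.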

How the data were processed

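Counts were made and deposited by the authors as whole numbers of reads per gene, without normalization or pooling of replicates. Per the labels and the study's methods, paired-end reads were trimmed with Trim Galore 0.6.5, aligned to mm10 (GRCm38) with GSNAP and counted with HTSeq on Ensembl genes. The table also holds 92 spike-in rows (0.575% to 0.884% of all counts of a library) and 5 rows that name no gene (21.3% to 24.3%), which were left out of library sizes and tests. Symbols, positions and exon lengths came from GENCODE vM21 (53706 of 53801 identifiers found), promoters from RefSeq.

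Differences were tested on the counts with edgeR 4.0.16 (R 4.3.3, filterByExpr with a minimum count of 10, TMM factors 0.975 to 1.03, 1 term for each of 6 groups, 12 residual degrees of freedom, robust quasi-likelihood test). DESeq2 1.42.0 gave size factors and an alternative test, limma 3.58.1 another. Replicates were numbered in accession order, since the labels give plate wells. Each of the 18 replicate pairs was further apart than sampling noise gives (chi-square per degree of freedom 1.55 to 3.33). The fit was tested on simulated data that gave all genes the same spread. Changes were planted only in genes with a mean of at least 50 normalized counts, so genes below that were not covered. For the contrast of lines in ESCs over 17875 genes, the fit recovered 80.0% of 1.25-fold changes and 100% of 1.5-fold changes. For the interaction from ESC to T24 over 17853 genes it recovered 70.0% and 92.0%.

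The members and lists were chosen with earlier results of these data known. Beside the members, the rule named up to 2 rises and 2 falls of each list, the largest between the lines with each gene at its stage of largest change, with an adjusted p under 0.05 and a mean of at least 50 normalized counts, and the 3 genes closest in course to the member of widest range. Alternatives were DESeq2, voom, other scalings and filters, plate column 9 left out, only the groups compared, and each library left out in turn. Paralog shares used exact permutation tests. A few results for single genes and 1 set of shares are not reported here.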

Additional observations from a re-analysis of the deposited data

Results flagged for a closer look

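The change over time differed between the lines in 18 tests of the members by the edgeR interaction term, with adjusted p under 0.05, and these values are given without an explanation. Of all genes tested, 21.5% were called above 0 and 16.9% below 0 in the first interval, and 25.3% and 20.9% in the second. Under spike-in scaling 2 members stayed called in the first interval and 3 in the second. The first Suz12 interaction also lost its call in 6 other settings. From ESC to T24 the log2 interaction (iEZR_CA change minus WT change) was above 0 for Phf19 (1.19), Eed (0.34), Ezh1 (0.31), Cbx7 (0.20) and Rybp (0.19), and below 0 for Jarid2 (-0.66), Ezh2 (-0.41), Mtf2 (-0.23) and Suz12 (-0.10). From T24 to T48 it was above 0 for Suz12 (0.72), Jarid2 (0.52), Rybp (0.47), Mtf2 (0.43), Ezh2 (0.35), Cbx7 (0.27) and Eed (0.18), and below 0 for Ezh1 (-0.55) and Cbx2 (-0.29). Jarid2, Ezh2, Mtf2 and Suz12 went from below 0 in the first interval to above 0 in the second, and Ezh1 went from above 0 to below 0. Both intervals share the T24 libraries.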

How the results depend on the processing

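Over the 90 tests of members (10 genes in 9 contrasts), DESeq2, voom and DESeq2 size factors changed no call, and spike-in scaling ended 40 of 78. Some of these kept a log2 difference about as large, such as Phf19 between the lines in ESCs (-0.55 with TMM, -0.48 with spike-in scaling). Ezh2 at T24 went from -0.33 to -0.26 and Cbx2 at T24 from -0.33 to -0.27. In 3 of the 40 the sign also turned, to values that were not called, which were Suz12 in WT from ESC to T24 (0.02), Eed in iEZR_CA from ESC to T24 (0.07) and Mtf2 in iEZR_CA from T24 to T48 (0.01). Under spike-in scaling the median of all genes was 0.10 to 0.14 in the contrasts over time, against -0.01 to 0.01 with TMM. It left 3, 3 and 5 members called between the lines in ESCs, at T24 and T48, 4 in WT and 4 in iEZR_CA from ESC to T24, 4 in iEZR_CA from T24 to T48, and 2 and 3 in the interactions. Of all genes it left 5506, 7129 and 7229 between the lines, 6593 and 6931 in iEZR_CA over time, and 2416 and 3761 in the interactions. The spike-in share of a library varied most between the replicates of iEZR_CA T48 (0.874%, 0.575% and 0.643% of all counts). The cause of the lost calls was not tested. The split of higher and lower calls went from 4877 and 5181 to 3074 and 2432 between the lines in ESCs, so that the majority turned from lower to higher, from 5697 and 5556 to 4355 and 2774 at T24, from 5727 and 5555 to 4029 and 3200 at T48, from 5870 and 6212 to 5314 and 3318 in WT over the first day, from 6058 and 6079 to 5455 and 3368 over the second, from 5009 and 5331 to 4542 and 2051 in iEZR_CA over the first day, from 5466 and 5549 to 4118 and 2813 over its second, and from 3966 and 3115 to 1656 and 760 in the first interaction and from 4665 and 3861 to 1909 and 1852 in the second.

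Testing with no filter on low counts ended 5 member calls, all of small changes (Ezh2 in ESCs, Cbx7 at T48, Ezh2 in WT and Eed in iEZR_CA from ESC to T24, Suz12 in the first interaction), and leaving out both libraries of plate column 9 ended those of Cbx7 and Suz12 and added that of Cbx2 in iEZR_CA from T24 to T48. Without single libraries, members called ranged from 8 to 9 between the lines in ESCs, were 8 at T24, and ranged from 7 to 8 at T48. Cbx7 at T48 (log2 -0.06 or -0.05) lost its call, with an adjusted p of 0.0530 to 0.149, without WT T24 replicate 2 or 3, WT T48 replicate 3, iEZR_CA ESC replicate 1 or 3, iEZR_CA T24 replicate 1 or 3, or iEZR_CA T48 replicate 1 or 3. Ezh2 in WT from ESC to T24 lost it without WT ESC replicate 2 (0.06, 0.101) or WT T24 replicate 2 (0.05, 0.190). The first Suz12 interaction lost it, with an adjusted p of 0.0696 to 0.176 and values from -0.09 to -0.06, without WT T24 replicate 2, WT ESC replicate 3, iEZR_CA ESC replicate 1 or iEZR_CA T24 replicate 3. No paired analysis was made, because the labels give plate wells and no replicate numbers.

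Without division by length and with coding length, the Phf19 share difference was 4.88 and 4.99 points at T24 and 1.81 and 1.86 at T48. The depth of 10940752 to 33276622 counts limits mainly Phf19, Hox and marker genes with few counts.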
